A study of Mus musculus with 12 samples.

Results

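The question asked of these arrays was whether the response of mouse colon epithelium to dextran sulfate sodium (DSS) differs between wild-type mice and mice carrying a Villin-Claudin-2 transgene. It is put to every gene as an interaction, the change under DSS in transgenic mice minus the change under DSS in wild-type mice. All 12 arrays of the series enter it, taken by their titles in 4 groups of 3. The groups are wild-type littermates on water (WT water), transgenic mice on water (TG water), wild-type littermates on DSS (WT DSS) and transgenic mice on DSS (TG DSS). All mice were males of 8 to 10 weeks, and the DSS groups drank 4% w/v DSS for 10 days. The interaction was computed for the 19935 genes that had a probe set with a single gene symbol, out of 28815 probe sets in all.

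Claudin-2, a component of tight junctions, makes pores for small cations and water between epithelial cells, and it is abundant in leaky epithelia. The promoter of villin, a brush border protein, is used to drive transgenes in the epithelium of the gut. DSS is a sulfated polysaccharide that damages the colon lining, lets bacteria reach the tissue and draws in neutrophils and monocytes, after which the crypts have to rebuild the surface. A gene with a positive interaction stood higher under DSS, relative to its own water level, in TG than in WT mice, and a gene with a negative interaction stood lower.

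Each value below is a log2 signal set against that probe set's median over all arrays, so differences between arrays can be read and absolute levels cannot. For that reason the labelled cell type, colon epithelial cells, could not be checked by the level of its markers. The labels do not tie each array to an animal of its own, so p-values describe only the spread among samples, part of which may be technical. In such bulk RNA, fewer cells of a type and less RNA per cell cannot be told apart. The DSS arrays differed within their groups. Relative to their water means, 576, 3324 and 799 genes lay beyond 1 log2 unit in WT DSS replicates 1 to 3, and 397, 44 and 69 genes in TG DSS replicates 1 to 3.

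The WT DSS arrays lay farther from water than the TG arrays. Over all genes the change under DSS had an SD of 0.46 log2 units in WT and 0.18 in TG. The 592 genes with a mean WT change above 1 had a median change of 1.34 in WT and 0.26 in TG, and 19 of them also lay above 1 in TG. The 364 genes with a mean WT change below -1 had medians of -1.29 and -0.15, and 8 of them also lay below -1 in TG. These genes were picked by their WT values, so the size of the WT medians follows from the choice. Most kept the sign of the WT change in TG, namely 525 of the 592 (88.7%) and 271 of the 364 (74.5%). The 592 genes with a mean WT change above 1 had median deviations from water of 1.02, 2.66 and 0.36 in WT DSS replicates 1 to 3 and of 0.84, -0.02 and -0.05 in TG DSS replicates 1 to 3. TG DSS replicate 1 thus carried nearly all of the TG response of these genes. Across genes the mean WT change correlated with the deviations of TG DSS replicate 1 at r = 0.61, and with those of replicates 2 and 3 at r = 0.01 and 0.00. The compared arrays share no sample, and genes are not independent replicates.

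**Figure D1:**
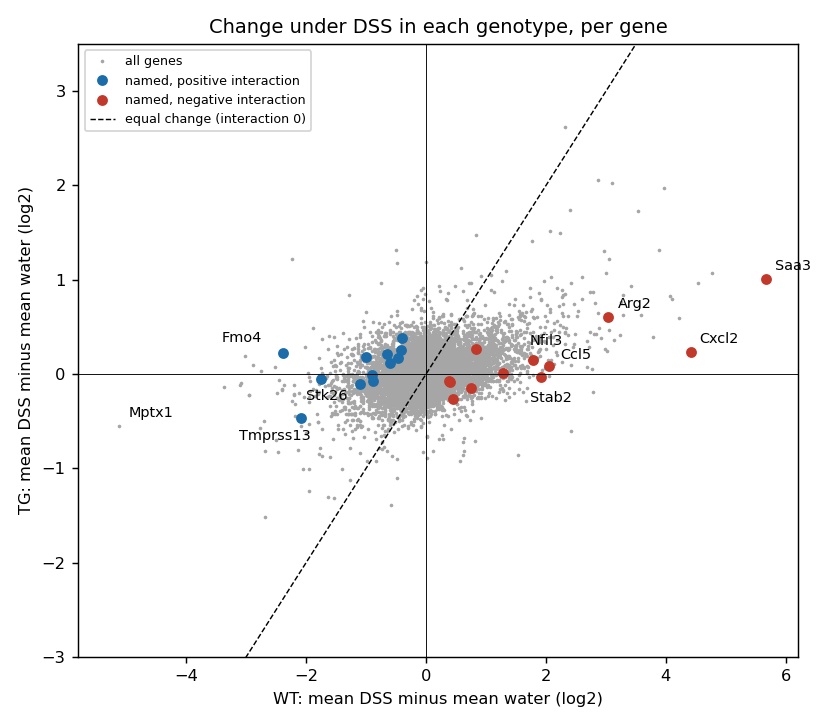
Change under DSS in WT (x axis) and in TG (y axis), mean DSS minus mean water in log2 units, for 19935 genes in grey, with the 12 named genes of positive interaction in blue and the 12 of negative interaction in red. The cloud lies flatter than the dashed line of equal change, and Saa3 stands at 5.67 in WT and 1.01 in TG.

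No gene passed the test of the interaction over all genes. In limma, 0 of 19935 genes (0%) had an adjusted p under 0.05, and the smallest adjusted p was 0.797. Without adjustment 1167 genes (5.85%) had a p under 0.05, of which 914 (4.58% of all genes) were positive and 253 (1.27%) negative. By size, 759 genes (3.81%) had an interaction beyond 1 log2 unit, of which 338 (1.7% of all genes) lay above 1 and 421 (2.11%) below -1. Without WT DSS replicate 2 these counts were 199 and 185. The count of passing genes depended on single arrays. It was 239 (183 positive, 56 negative) without WT DSS replicate 1 and 6, all negative, without WT DSS replicate 3, with 0 genes shared between these sets. It was 12 with a weight for each array, and 0 when any other single array was left out. The WT DSS group gave a median of 40.2% of the summed variances of the 4 groups, against 14.5% from WT water, 13.4% from TG water and 9.31% from TG DSS.

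For a view per array, each DSS array was set against the mean of the 3 water arrays of its own genotype. The resulting deviations of the 3 TG arrays lay wholly above those of the 3 WT arrays for 2776 genes (13.9%) and wholly below for 1725 (8.65%), 22.6% of genes in all. Genes of either kind are called separated, which is a count without a test. The genes named next are the 12 of smallest p in each direction, and all 24 had a limma adjusted p of 0.797, so none passed. Their unadjusted p-values ran from 7.71e-05 to 0.00438. In all 24 the deviations of TG and WT did not overlap, as the choice by small p favours. The WT change was the larger in size in all 24. That held for 62.5% of all genes and for 87.1% of those with an unadjusted limma p under 0.05.

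**Figure D2:**
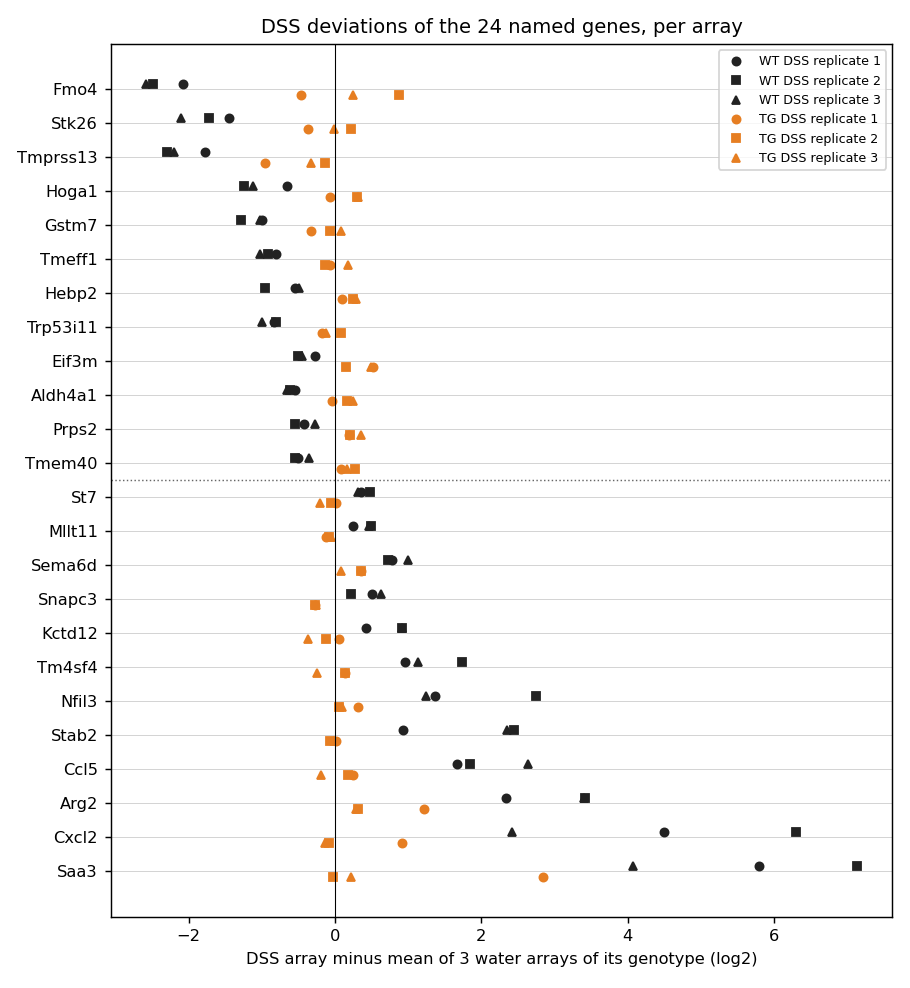
Deviation of each DSS array from the water mean of its genotype (x axis, log2) for the 12 named genes of positive interaction (above the dotted line) and the 12 of negative interaction. Black symbols are WT and orange symbols TG arrays, and in each row the orange symbols lie nearer to 0 on average, with Saa3 reaching 2.84 in TG DSS replicate 1.

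On the negative side, Saa3 and Cxcl2 had the interactions of greatest size among the 12 named genes. Saa3 encodes a serum amyloid A protein of the acute phase. Its WT values were -0.29, -0.30 and -0.13 on water and 5.55, 6.89 and 3.83 on DSS. In TG it read 0.09, -0.23 and -0.09 on water and 2.77, -0.10 and 0.15 on DSS. Saa3 was thus high on each WT DSS array and on 1 of 3 TG DSS arrays. Its interaction was -4.65 ± 1.14 (SE, n = 3 arrays per group), so the ratio of DSS to water was 25.1-fold lower in TG than in WT. The interaction was -5.57 without TG DSS replicate 1 and -3.92 without WT DSS replicate 2.

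Cxcl2, a chemokine that draws neutrophils, read 4.38, 6.18 and 2.30 in the WT DSS arrays and 0.88, -0.11 and -0.17 in the TG DSS arrays, beside -0.35 to 0.09 in WT water and -0.27 to 0.31 in TG water. Only TG DSS replicate 1 lay above its water arrays, and its interaction was -4.18 ± 1.06. Ccl5, which draws T cells, read 1.5, 1.70 and 2.49 in the WT DSS arrays and 0.07, 0.01 and -0.36 in the TG DSS arrays. No TG DSS value reached the lowest WT DSS value, TG water lay at -0.27 to -0.01, and the interaction was -1.97 ± 0.35. Arg2, the mitochondrial arginase, read 2.08, 3.16 and 3.15 in the WT DSS arrays and 0.83, -0.08 and -0.10 in the TG DSS arrays, an interaction of -2.44 ± 0.51.

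The upstream sequence of Cxcl2 is shown because its WT and TG arrays lay far apart under DSS and because the factor NF-kB is a textbook activator of this gene. It covers the 250 bases before the RefSeq start of the gene, at chr5:90903649-90903898 on the plus strand of GRCm38.p6. Capitals mark both matches to an NF-kB motif, GGGNN followed directly by TTTCC, searched on either strand, which begin 97 and 78 bases before the start and do not overlap.
Cxcl2: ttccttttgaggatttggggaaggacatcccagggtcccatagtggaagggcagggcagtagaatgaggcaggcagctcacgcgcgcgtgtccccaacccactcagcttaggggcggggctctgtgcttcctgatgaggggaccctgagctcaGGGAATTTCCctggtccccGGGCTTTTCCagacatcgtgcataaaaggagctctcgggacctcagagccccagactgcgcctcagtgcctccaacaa
A match stood in 464 of the 32851 upstream windows of this length that were searched (1.41%). The 35 measured cytokine and chemokine genes that had a window had 41 windows, of which 8 (19.5%) held a match. A match describes letters and is no evidence of binding.

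Stab2, a scavenger receptor that takes up hyaluronan, read 0.87, 2.39 and 2.29 in the WT DSS arrays and -0.01, -0.09 and -0.03 in the TG DSS arrays, an interaction of -1.94 ± 0.46. All WT DSS values lay above all TG DSS values. Nfil3, a transcriptional repressor that acts in the clock and in lymphoid cells, read 1.23, 2.60 and 1.11 in WT DSS and 0.24, -0.01 and 0.03 in TG DSS, an interaction of -1.63 ± 0.45. Tm4sf4, a tetraspan membrane protein, had an interaction of -1.27 ± 0.27 and Kctd12, an auxiliary subunit of GABA-B receptors, one of -0.90 ± 0.23. The remaining named genes of this side had smaller values, namely Snapc3 with -0.72 ± 0.15, Sema6d with -0.57 ± 0.15, Mllt11 with -0.49 ± 0.12 and St7 with -0.46 ± 0.12. The water arrays entered little into most of these values. Of the 24 named genes, 3 had a TG minus WT difference on water beyond 0.2 log2 units, namely Fmo4 with -0.42, St7 with 0.26 and Snapc3 with 0.21.

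On the positive side, Fmo4 had the interaction of greatest size among the 12 named genes. Fmo4, a flavin monooxygenase, read 0.31, 0.34 and 0.23 in WT water and -1.78, -2.19 and -2.28 in WT DSS. In TG it read 0.13, -0.11 and -0.41 on water and -0.59, 0.75 and 0.11 on DSS. The WT DSS arrays lay close together far below water, and the TG arrays lay on both sides of it. The interaction was 2.59 ± 0.41, with a WT change of -2.38 ± 0.29 and a TG change of 0.22 ± 0.29. Tmprss13, a membrane serine protease, read -1.74, -2.26 and -2.16 in WT DSS and -0.72, 0.09 and -0.09 in TG DSS, an interaction of 1.62 ± 0.30. Stk26, a kinase of the germinal centre kinase family, had an interaction of 1.71 ± 0.32, from a WT change of -1.76 and a TG change of -0.05.

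The remaining positive genes had smaller interactions. Hoga1, an aldolase of hydroxyproline breakdown, had an interaction of 1.19 ± 0.24. Gstm7, a mu-class glutathione transferase, had 0.99 ± 0.21, Aldh4a1, which acts in proline breakdown, had 0.73 ± 0.14, and Prps2, which makes the ribose precursor of nucleotides, had 0.67 ± 0.13. Hebp2, a heme-binding protein, deviated by -0.55, -0.95 and -0.49 in WT and by 0.10, 0.25 and 0.28 in the TG arrays, an interaction of 0.87 ± 0.17. Eif3m, a subunit of translation initiation factor eIF3, had 0.79 ± 0.16. Tmeff1, Trp53i11 and Tmem40 had 0.90 ± 0.16, 0.81 ± 0.13 and 0.64 ± 0.12.

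Outside this rule, Mptx1, a mucosal pentraxin of goblet and Paneth cells, was chosen after its values were seen. It read -3.56, -6.17 and -4.89 in WT DSS and -2.05, 0.48 and -0.06 in TG DSS, beside water values of -0.29 to 0.42. The interaction was 4.56 ± 0.98 (limma adjusted p = 0.797), and again TG DSS replicate 1 alone resembled the WT arrays.

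**Figure D3:**
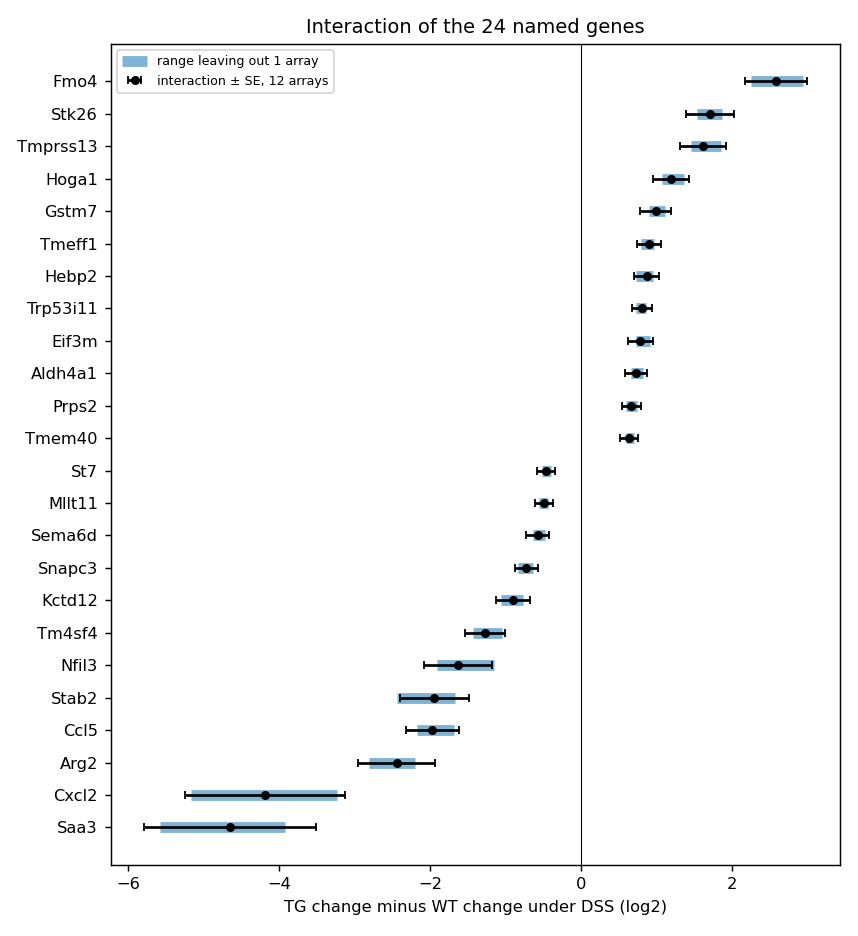
Interaction (x axis, log2) of the 24 named genes, as a point with its SE from all 12 arrays, over a blue bar that spans the values when each array in turn was left out. No bar reaches 0, and the bar of Cxcl2 spans -5.17 to -3.23.

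All 24 named genes kept the sign of their interaction when each array in turn was left out. Without WT DSS replicate 1, 14 of the 24 passed, among them Stab2 with -2.43 (limma adjusted p = 0.000785). With a weight per array 7 passed, among them Cxcl2 with -3.90, Nfil3 with -1.27 and Fmo4 with 2.55 (limma adjusted p = 0.0446 for each). Those weights ran from 0.105 for WT DSS replicate 2 to 7.15 for WT water replicate 1, so few arrays decided that fit.

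Genes of the cell cycle formed the list with the highest median interaction, 0.93 against 0.01 over all genes. All 35 measured members had an interaction above 0, where 52.2% of all genes did. For 20 of the 35 (57.1%) the TG deviations lay wholly above the WT deviations, where 13.9% of all genes did so. Of the 35, 15 (42.9%) had an unadjusted limma p under 0.05 and a positive interaction, against 4.58% of all genes, and 0 passed over all genes. The list median of the deviations was -0.03, -0.67 and -1.49 in WT DSS replicates 1 to 3 and 0.40, 0.18 and 0.13 in TG DSS replicates 1 to 3. WT DSS replicate 1 was near its water mean and replicate 3 farthest below it, while the TG arrays all lay above theirs. The list median was 0.57 without WT DSS replicate 3 and 1.35 without WT DSS replicate 1. On the 3 WT DSS arrays the pan-epithelial list deviated by -0.16, -2.22 and 0.02, so it was lowest in replicate 2, where the cell cycle list was not. The part of cell type mix in the cell cycle values was not tested.

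Genes that act in mitosis had the larger values of this list. Kif11, a kinesin that separates the spindle poles, read -0.41, -1.60 and -2.58 in WT DSS and 0.40, 0.29 and -0.05 in TG DSS, beside -0.03 to 0.30 in WT water and -0.38 to 0.18 in TG water. All 3 WT DSS arrays lay below their water arrays, and the interaction was 1.90 ± 0.60 (limma adjusted p = 0.797). Aurkb, a kinase of chromosome segregation, had 1.63 ± 0.48, Cenpe, a kinetochore motor, had 1.54 ± 0.49, and Kif20a, a kinesin of cytokinesis, had 1.44 ± 0.47. Mki67, the proliferation marker Ki-67, deviated by -0.29, -1.51 and -2.67 in WT and by 0.34, 0.33 and 0.25 in TG. The 6 Mcm genes of the list, which encode the helicase that opens DNA for replication, had interactions from 0.18 to 0.93, and all 6 overlapped between TG and WT. The Mcm genes and Mki67 were singled out after their values were seen.

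**Figure D4:**
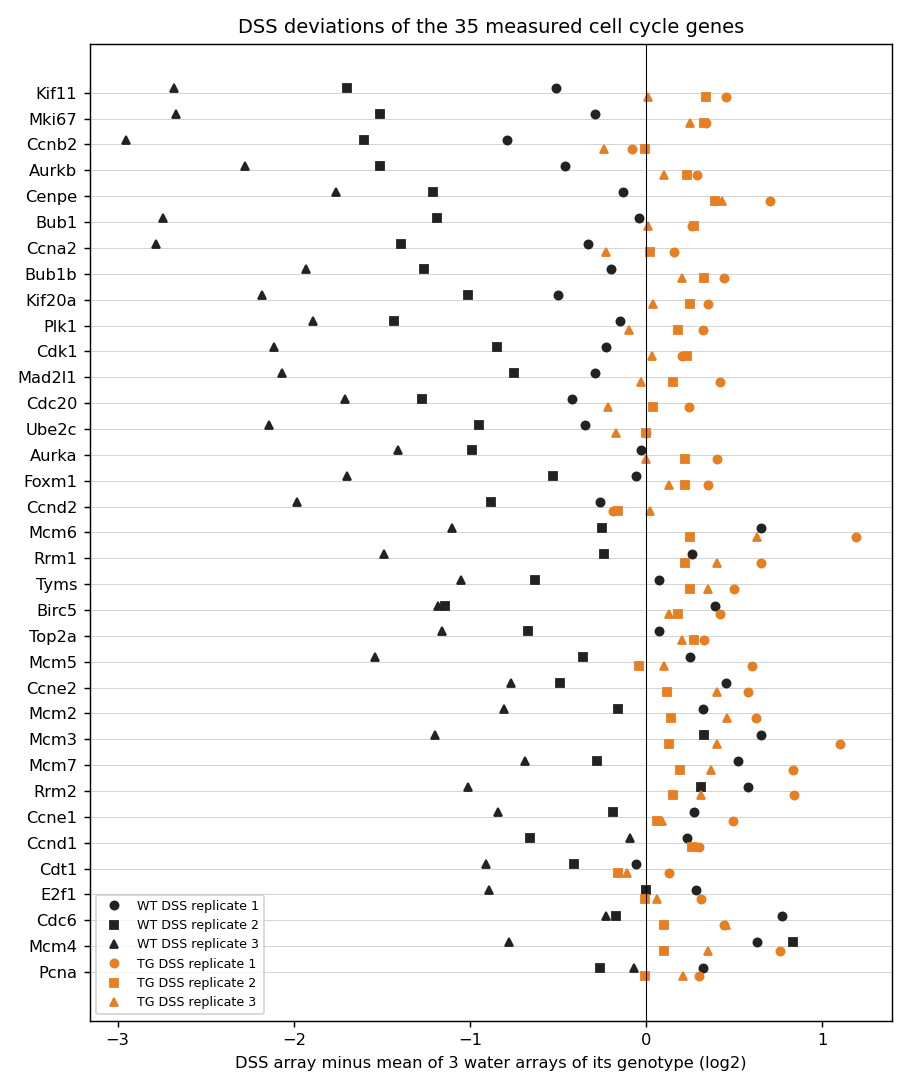
Deviation of each DSS array from the water mean of its genotype (x axis, log2) for the 35 measured cell cycle genes, ordered by interaction, with WT arrays in black and TG arrays in orange. The rows from Kif11 to Ccnd2 show all TG symbols to the right of all WT symbols, and WT DSS replicate 3 lies farthest left in most rows.

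The upstream 250 bases of 2 of these genes are shown because the G2 and M phase genes are known to share CCAAT boxes and the CHR element near their starts. Capitals mark matches on either strand to CCAAT and to TTTGAA, the core of the CHR. The Kif11 window lies at chr19:37376132-37376381 and that of Cenpe at chr3:135212313-135212562, both on the plus strand of GRCm38.p6, from RefSeq.
Kif11: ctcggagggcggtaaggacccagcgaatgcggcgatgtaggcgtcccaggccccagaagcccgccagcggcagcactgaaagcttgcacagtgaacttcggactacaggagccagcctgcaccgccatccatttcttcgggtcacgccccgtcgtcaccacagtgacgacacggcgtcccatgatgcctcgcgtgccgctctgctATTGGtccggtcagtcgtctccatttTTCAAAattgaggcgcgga
Cenpe: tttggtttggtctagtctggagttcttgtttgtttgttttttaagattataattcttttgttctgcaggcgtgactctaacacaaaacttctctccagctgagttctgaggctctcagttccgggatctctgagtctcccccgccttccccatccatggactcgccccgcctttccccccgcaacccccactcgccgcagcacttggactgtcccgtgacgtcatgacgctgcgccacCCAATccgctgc
The first capitals begin 45 bases before the start in Kif11 and 12 bases before it in Cenpe, and the TTTGAA match of Kif11 begins 19 bases before it. The 27 cell cycle genes with a window had 28 windows. Of these, 21 (75%) held CCAAT and 8 (28.6%) held TTTGAA, beside 33.8% and 16% of the 32851 windows searched. The motifs were chosen with the data known, and the shares are descriptions.

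Stem cell genes of the crypt and Wnt targets, taken as a list, also leaned to the positive side. The median interaction was 0.34 over 23 genes, and 0.19 without WT DSS replicate 3. Above 0 lay 16 (69.6%), against 52.2% of all genes, and 7 lay below 0, the lowest at -0.95. Of the 23, 10 (43.5%) had TG deviations wholly above WT, against 13.9% of all genes. TG deviations lay wholly below WT for 1 (4.35%), against 8.65% of all genes. A positive interaction at an unadjusted limma p under 0.05 was found for 8 (34.8%), against 4.58% of all genes, and 0 passed over all genes. The list medians were close on the WT DSS arrays, at -0.28, -0.28 and -0.31, and the TG DSS arrays gave -0.14, -0.02 and -0.06. The 4 members named next had the smallest p of the list. Lgr5, an R-spondin receptor and stem cell marker, read -1.40, -1.99 and -1.70 in WT DSS and -1.08, 0.00 and -0.51 in TG DSS, an interaction of 1.38 ± 0.36. All 6 DSS values lay at or below 0, and those of WT lay lower. Ephb3, an ephrin receptor that positions crypt cells, had 0.99 ± 0.26, Znrf3, a ubiquitin ligase that restrains Wnt signalling, had 0.79 ± 0.23, and Lrig1, a growth factor antagonist of stem cells, had 0.44 ± 0.12 (limma adjusted p = 0.797 for the 4).

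Hox genes of the posterior body, expressed in hindgut, had a median of 0.55 over 14 genes. Above 0 lay 10 (71.4%), against 52.2% of all genes, and 4 lay below 0, the lowest at -1.01. Separated with TG above WT were 7 (50%), against 13.9% of all genes. With TG below WT, 1 (7.14%) was separated, against 8.65% of all genes. The median was 0.34 without WT DSS replicate 3. Hoxd12 had 1.10 ± 0.36 and Hoxa10 had 0.63 ± 0.28 (0.40 without that array). Their list medians were -0.25, -0.39 and -0.80 in the WT DSS arrays and -0.17, 0.00 and 0.02 in the TG DSS arrays. Oxidative phosphorylation genes had a median of 0.38 over 31 genes, 28 of them above 0 and 13 (41.9%) separated with TG above WT, beside the same 13.9%. Ndufb8, a complex I subunit, had 0.62 ± 0.27 and Atp5j, an ATP synthase subunit, had 0.29 ± 0.10. All 20 cholesterol synthesis genes lay above 0, with a median of 0.40, and 4 (20%) were separated, a share near that of all genes. Tm7sf2, a sterol reductase, had 0.90 ± 0.37 and Mvk, mevalonate kinase, had 0.39 ± 0.17. No member of these 3 lists passed. WT DSS replicate 2 deviated most for both metabolic lists, by -0.87 and -0.92, and without it their medians were 0.14 and 0.12, Ndufb8 stood at 0.35 and Tm7sf2 at 0.55.

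On the negative side, the cytokines and chemokines had a median interaction of -0.81 over 48 genes. Below 0 lay 43 of them, where 47.8% of all genes did, and 13 (27.1%) had TG deviations wholly below WT, against 8.65% of all genes. At an unadjusted limma p under 0.05, 9 were negative (18.8%, against 1.27% of all genes), and 0 passed over all genes. Beside Ccl5 and Cxcl2, Ccl3, a chemokine of monocytes, had -3.62 ± 1.20 and Osm, a cytokine of the IL-6 family, had -1.40 ± 0.45. Osm deviated by 1.33, 2.04 and 0.39 in WT and by -0.11, -0.23 and -0.11 in the TG arrays, on opposite sides of the water means. TG water read 0.00, -0.01 and 0.32, so replicate 3 raised that mean, and the lowest TG DSS value was -0.12. Matrix remodelling genes had a median of -1.55, all 27 lay below 0 and 5 (18.5%) were separated with TG below WT. Plaur, the urokinase receptor, had -1.58 ± 0.52, Thbs1, thrombospondin, had -1.87 ± 0.68, and the metalloproteinases Mmp13 and Mmp10 had -3.69 ± 1.47 and -3.30 ± 1.36. The deviations of Mmp13 overlapped, at 5.35, 6.31 and 2.65 in WT and 3.48, -0.36 and 0.11 in TG.

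For immune regulation and tolerance the median was -0.57, 28 of 31 genes lay below 0, against 47.8% of all genes, and 8 (25.8%) were separated with TG below WT, against 8.65% of all genes. Arg1, the cytosolic arginase of alternatively activated macrophages, had -1.44 ± 0.42, from deviations of 1.87, 1.62 and 0.46 in WT and -0.09, -0.14 and -0.13 in TG. The antimicrobial and acute-phase list had a median of -0.28, with 23 of 34 below 0, and of -0.15 without WT DSS replicate 1. Lcn2, which binds bacterial iron carriers, had -3.57 ± 1.27, and its deviations overlapped, at 4.51, 6.50 and 2.62 in WT and 2.71, 0.12 and 0.09 in TG. None of these genes passed.

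Markers of other cell types leaned negative as well. Neutrophil genes had a median interaction of -1.55, with 20 of 21 genes below 0, and their level, the median value over the genes on an array, ranged from 0.23 to 3.41 in WT DSS, -0.05 to 0.60 in TG DSS and -0.23 to 0.03 on water. Macrophage and monocyte genes had -0.72 with 21 of 22 below 0, and levels of -0.06 to 2.48 in WT DSS and -0.26 to 0.96 in TG DSS. Endothelial genes had -1.14 with all 22 below 0, and levels of -0.20 to 2.89 in WT DSS and -0.18 to 0.32 in TG DSS. Fibroblast genes had -0.57 with 20 of 22 below 0, and levels of -0.18 to 2.26 and -0.30 to 0.71. T and NK cell genes had -0.29 with 18 of 21 below 0, and enteric neuron and glia genes had -0.35 with 15 of 17 below 0. MHC class II genes had -0.28 with 8 of 9 below 0. Over all genes 47.8% lay below 0, and 8.65% were separated with TG below WT. Among the lists such separation held for 4 neutrophil genes (19%), 3 T and NK genes (14.3%) and 2 neuron and glia genes (11.8%). It held for 1 endothelial gene (4.55%) and for no macrophage, fibroblast or MHC class II gene. In the neutrophil, macrophage, endothelial and fibroblast lists WT DSS replicate 2 was highest and TG DSS replicate 1 was the highest TG array. Their part in the inflammatory values was not tested. Without WT DSS replicate 2 the medians were -0.74 for neutrophils, -0.16 for macrophages, -0.22 for endothelium, 0.01 for fibroblasts and -0.12 for enteric neurons and glia. The T and NK median was -0.12 without WT water replicate 3, and the MHC class II median was 0 without WT DSS replicate 1. Leaving out WT DSS replicate 2 gave -0.27 for cytokines and chemokines, -0.65 for matrix remodelling and -0.22 for immune regulation.

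Among the neutrophil genes Retnlg had -2.82 ± 1.08 (-1.84 without WT DSS replicate 2) and S100a9, a calcium-binding protein abundant in neutrophils, had -2.57 ± 1.08, with deviations of 3.54, 4.63 and 0.97 in WT and 1.53, 0.03 and -0.13 in TG. In the T and NK list Gzmb, the cytotoxic protease granzyme B, had -1.44 ± 0.59, from 0.55, 1.89 and 2.65 in WT and 0.67, 0.00 and 0.10 in TG. Gzmb was highest in WT DSS replicate 3, where the neutrophil list was lowest of the WT arrays. Smooth muscle genes had a median of 0.27, which was -0.24 without WT DSS replicate 1, and B and plasma cell genes had -0.03.

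The interaction of general epithelial genes rested on a single array. The pan-epithelial list had a median of 0.68, and 25 of 26 genes lay above 0, against 52.2% of all genes. TG deviations lay wholly above WT for 2 (7.69%), against 13.9% of all genes. The list had a level of -2.14 to 0.06 in WT DSS, -0.20 to 0.05 in TG DSS and -0.05 to 0.12 on water. Without WT DSS replicate 2 the median was -0.03. The absorptive colonocyte list had 0.56 (-0.15 without that array) and the goblet cell list 0.21 (-0.24 without it). Scnn1a, which encodes the ENaC alpha subunit, deviated by -1.16, -3.12 and -1.59 in WT and by -0.70, -0.31 and -0.58 in TG, an interaction of 1.43 ± 0.55, and of 0.84 without WT DSS replicate 2. Emp1, an epithelial membrane protein, ran the other way with -1.49 ± 0.56, from -0.06, 0.64 and 1.30 in WT and -0.31, -0.69 and -1.59 in TG.

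The gene of the transgene, Cldn2, showed no clear interaction. It read -0.53, -2.28 and -0.12 in WT DSS and -0.24, 0.27 and 0.15 in TG DSS, beside -0.04, 0.02 and 0.11 in WT water and 0.36, 0.18 and -0.02 in TG water. The low value of WT DSS replicate 2 set most of its interaction, which was 0.89 ± 0.62 (limma adjusted p = 0.855) and 0.24 without that array. Whether its probe set reads the transcript of the transgene is not known here, so it checks the genotype labels only weakly. Over the tight junction list the median was 0.40, 24 of 30 genes lay above 0 and 3 (10%) were separated with TG above WT, a smaller share than the 13.9% of all genes, and a median of 0.10 without WT DSS replicate 2. Prkci, an atypical protein kinase C of the polarity complex, had 0.57 ± 0.24, Cldn12 had 0.65 ± 0.32 and Tjp1, the scaffold ZO-1, had 0.19 ± 0.12. Prkci and Cldn12 both stood at 0.34 without WT DSS replicate 2.

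Rbp2, a retinol carrier of enterocytes, was the gene of the small intestinal enterocyte list with the smallest p, and its interaction of 2.38 ± 0.54 had a large part from water. It read 0.98, 0.98 and 1.35 in WT water and -0.19, -0.35 and -0.41 in TG water, a TG minus WT difference of -1.42. Under DSS it read 0.31, -1.31 and -1.37 in WT and 0.53, -0.21 and 0.19 in TG, a difference of 0.96. The list as a whole had a median of 0.03 over 24 genes.

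The remaining lists had medians between -0.19 and 0.09. The interferon response list had a median interaction of -0.08, and near-equal median changes of 0.41 in WT and 0.42 in TG. Of its 27 genes 0 were separated in either direction, against 22.6% of all genes. WT arrays deviated by 0.79, 0.16 and 0.29, TG arrays by 0.54, 0.68 and -0.02. The list median was 0.21 without TG DSS replicate 3. In the MHC class II list, whose median of -0.28 was given above, none of the 9 genes was separated, against the same 22.6%. Its member Cd74, the invariant chain, overlapped, at 1.11, 0.05 and 0.95 in WT and 1.16, 0.00 and -1.34 in TG. The list of EGF family and survival genes had -0.04, with Ereg, an EGF receptor ligand, at -2.48 ± 1.11, Nrg1, a ligand of the ERBB receptors, at -2.16 ± 1.08 and Bid, a death effector of the BCL2 family, at 0.41 ± 0.21. All 3 overlapped between TG and WT, and without WT DSS replicate 2 Ereg stood at -1.53 and Nrg1 at -1.20. Of the 34 genes of that list, 5 (14.7%) were separated with TG below WT, against 8.65% of all genes. Among them was Epgn, of the EGF family, at -0.75 ± 0.37 (-0.38 without WT DSS replicate 2). Unfolded protein response genes had -0.06, with Ddit3, the stress factor CHOP, at -0.36 ± 0.13 and Pdia6, a disulfide isomerase, at -0.32 ± 0.13. Circadian clock genes had -0.02, with Cry1 at -0.74 ± 0.23 and Clock at 0.44 ± 0.21 (0.29 without WT DSS replicate 3). Tuft cell genes had -0.16, enteroendocrine genes -0.19 and adipocyte genes 0.09. These were 0.06, -0.02 and 0.34 without WT DSS replicate 3. In these lists Plcb2, a phospholipase of tuft cell signalling, had -0.66 ± 0.23, and Sst, the hormone somatostatin, had -1.25 ± 0.51. Ddc and Neurog3 of the enteroendocrine list ran the other way, with 1.04 ± 0.48 (0.58 without WT DSS replicate 2) and 0.69 ± 0.35. Of the enteroendocrine genes 8 lay above 0 and 17 (68%) below, where 47.8% of all genes lay below. Separated with TG below WT were 3 enteroendocrine genes (12%) and 3 tuft cell genes (16.7%), against 8.65% of all genes. With TG above WT, 1 enteroendocrine gene (4%) and 0 tuft cell genes were separated, against 13.9% of all genes. No gene of any list passed.

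**Figure D5:**
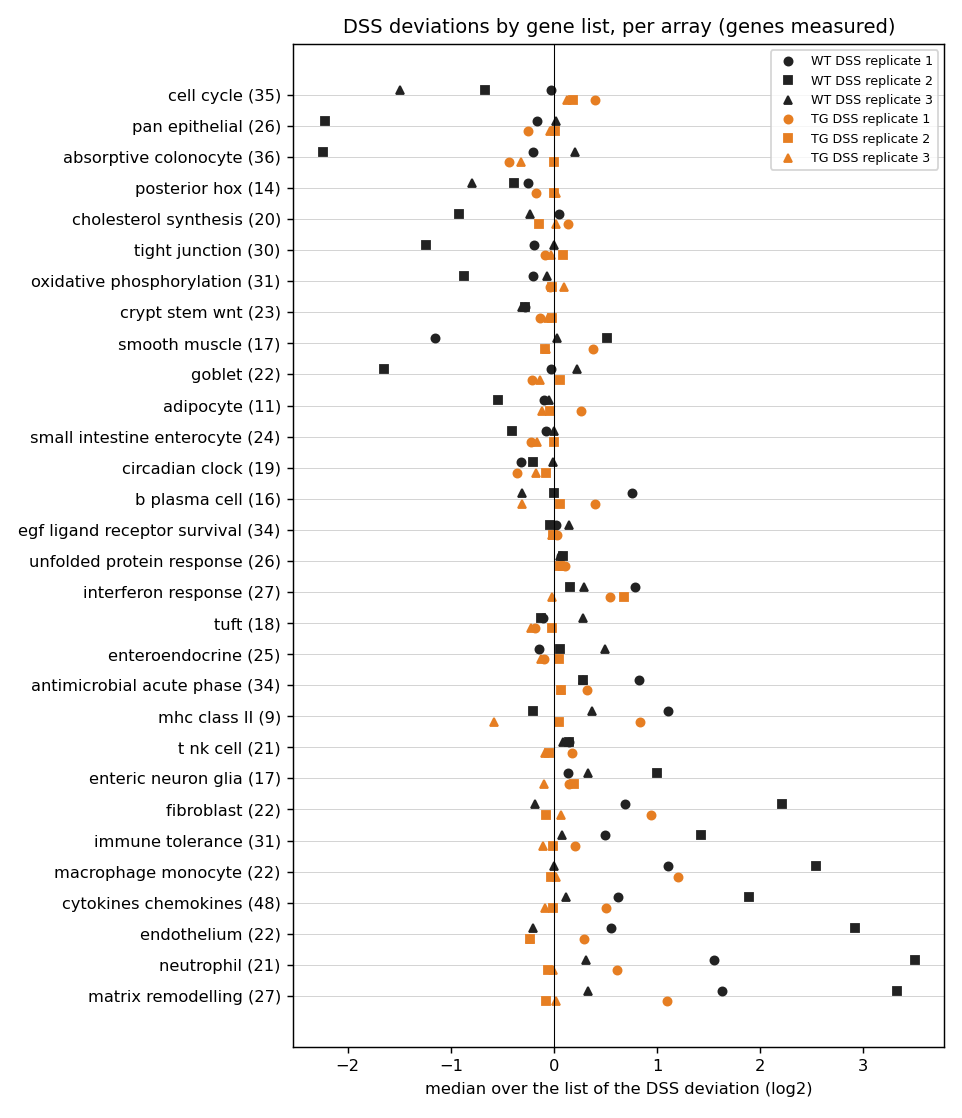
Median deviation of each gene list from the water mean of its genotype (x axis, log2) on the 3 WT DSS arrays (black) and the 3 TG DSS arrays (orange), with the genes measured in brackets and lists ordered by median interaction from 0.93 for cell cycle to -1.55 for neutrophil and matrix remodelling genes. WT DSS replicate 2, the black square, reaches 3.5 for neutrophil and -2.24 for absorptive colonocyte genes, and TG DSS replicates 2 and 3 stay near 0 in most rows.

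Few genes had a large mean change in TG. A mean TG change above 1 was found for 26 genes, of which 19 also lay above 1 in WT, and a change below -1 for 10 genes, of which 8 also lay below -1 in WT. In 7 of the 26 and 2 of the 10 the TG change was the larger in size. Chosen after their values were seen, Pla2g5, a secreted phospholipase, deviated by 0.34, -0.89 and -0.90 in WT and by 1.05, 1.08 and 1.42 in TG, an interaction of 1.66 ± 0.43 (limma adjusted p = 0.797). St8sia5, a sialyltransferase of gangliosides, was the only gene beyond 1 in opposite directions in both genotypes. It deviated by -0.23, -2.62 and -3.87 in WT and by 1.04, 1.51 and 1.11 in TG, an interaction of 3.46 ± 1.05 (limma adjusted p = 0.797). Clca4b, of the calcium-activated chloride channel regulator family, deviated by 3.07, 1.22 and 2.68 in WT and by 3.31, 2.01 and 2.54 in TG. Its interaction was 0.30 ± 1.01, and all 6 DSS arrays lay above water. Guca2a, the hormone guanylin of surface colonocytes, deviated by -0.33, -2.01 and 0.58 in WT and by -1.60, -0.74 and -1.82 in TG, an interaction of -0.80 ± 0.75.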

How the data were processed

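The submitters' processing notes name RMA and Affymetrix Expression Console without versions. The authors' deposited values were read as log2, as RMA gives. Every probe set had a median over the 12 arrays of 0 within 5e-07, so the values are centred per probe set, a step found from the values. Of 28815 probe sets, 21780 had 1 gene symbol, 1605 several and 5430 none. Those with 1 symbol were averaged per gene, with symbols updated through RefSeq of GRCm38.p6 (21689 matched).

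All 12 arrays entered a single linear model with 4 group means (limma 3.58.1, R 4.3.3, lmFit and eBayes, 8 residual degrees of freedom), with two-sided p-values adjusted by Benjamini-Hochberg over 19935 genes and a threshold of 0.05. Array number limits precision.

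The 30 gene lists (728 of 780 entries measured), the members and the motifs were chosen with earlier results of these data known. Named were Cldn2, the 12 genes of smallest p in each direction without predicted symbols, and up to 4 members per list. A dim filter and quantile normalization need absolute levels, which centring removes. The fit was tested on simulated data. Figures used Python 3.11.15 and matplotlib 3.10.9.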

Additional observations from a re-analysis of the deposited data

Results flagged for a closer look

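For 26 of 190 genes examined (13.7%), chosen in part by small p or large change, all 3 WT DSS arrays lay on one side of the water mean of their genotype and all 3 TG DSS arrays on the other, a pattern that 1195 of all 19935 genes (5.99%) showed. The difference itself is the interaction, and none of the 26 passed it (limma adjusted p from 0.797 to 0.852). A side of the mean does not place an array outside the spread of its water arrays. The TG DSS values of Clock (0.00, 0.00 and 0.06) lay within those of TG water (-0.25 to 0.14). Those of Cenpe (0.70, 0.39 and 0.43) lay above theirs (-0.23 to 0.22). Above water in TG and below it in WT lay Tmem40 (interaction 0.64), Hebp2 (0.87), Eif3m (0.79), Prps2 (0.67), Rbp2 (2.38), Lrig1 (0.44), Aurkb (1.63), Kif11 (1.90), Cenpe (1.54), Kif20a (1.44), Mki67 (1.79), Bub1 (1.5), Bub1b (1.45), Cdk1 (1.22), Foxm1 (1.00), St8sia5 (3.46), Atp5j (0.29), Ndufb8 (0.62) and Clock (0.44). Below water in TG and above it in WT lay Snapc3 (-0.72), Mllt11 (-0.49), Osm (-1.40), Arg1 (-1.44), Sst (-1.25), Ddit3 (-0.36) and Cartpt, a neuropeptide gene (-0.27). The median of the cell cycle list (0.93) had the same form relative to the water means, with WT DSS replicate 1 only just below, at -0.03. The list level on that array, 0.01, lay within the WT water levels of -0.13 to 0.17. The difference of this list median was not tested.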

How the results depend on the processing

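The 0 genes past the threshold stayed 0 with a replicate block (1041 genes at an unadjusted p under 0.05), weights per group, every probe set on its own, genes with a single probe set, all probe sets, arrays centred on their median, the more variable genes alone, robust eBayes and both stricter thresholds. With weights per array 12 passed. Leaving out 1 array gave 0 to 239. Without WT DSS replicate 2 and TG DSS replicate 1, chosen with the data known, 7 passed. The cause was not tested. The replicate numbers gave no sign of pairing the arrays. Deviations of same-numbered arrays correlated from -0.48 to 0.38, with 1 of 18 above 0.1, and 1 of 12 arrays correlated best with its own number. Such correlations cannot exclude a pairing, because the DSS arrays differed strongly within their groups. Genes whose deviations did not overlap numbered 4501, and 4126 to 7467 without 1 array. They numbered 2223 among the more variable genes, where fewer genes were counted, and 9745 without both arrays named above. Lists with a median above 0 numbered 12, and 10 to 15 in all settings run. Of the genes examined, the interaction changed sign or reached 0 when 1 or both of those arrays or another single array was left out for Tagln (-0.06 to 0.77), Myh11 (-0.22 to 0.84), H2-Oa (-0.49 to 0), Ckm (0 to 0.81) and Stat2 (-0.23 to 0.12), and with weights per array for Adipoq (-0.05) and Car3 (-1.23). A filter on dim probe sets and quantile normalization were not run.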
